A study of Bos taurus with 10 samples.

Results

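The milk fat globule membrane genes described here are MUC1, MUC15, MFGE8, XDH, BTN1A1, PLIN2, CIDEA, PLIN3 and RAB18. They were chosen by name, with earlier results of these data known. They are 9 of the 9155 genes that the platform annotation gives as the only symbol of a probe set. All their probe sets were taken, 12 of 24016 on the array. All 12 lay above the intensity filter, which kept 14409 probe sets. Mammary tissue was taken from 10 first-lactation German Holstein cows in mid lactation, all healthy at enrolment. All were brought into synchronized estrus and milked out under oxytocin at the start, and each cow gave 1 array. The neighboring group (5 cows) came from udder glands without inoculum, the cow having received in another gland 500 CFU of the mastitis isolate E. coli 1303 in 2 ml of saline, and was taken after 24 h. The healthy group (5 cows) came from uninoculated control animals and was taken after 24 h too. The inoculated glands were not analysed here. Neighboring 1, 2, 3 and 5 were pools of a saline-treated and an untreated gland, neighboring 4 was an untreated gland alone, and the setup list of the study gives healthy 3 and healthy 5 as single glands too. Values are on a log2 scale after RMA, which makes the arrays comparable with each other, and a difference of 1 is a doubling or a halving. The comparison asks whether transcripts of the proteins that wrap milk fat differ in tissue away from the infection.

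Milk fat leaves the secretory cell in an unusual way. Triglyceride collects in lipid droplets at the endoplasmic reticulum, the droplets move to the apical surface, and each one is pinched off inside a piece of the plasma membrane, so that the globule in milk carries a droplet coat and an outer membrane. XDH, the purine-degrading enzyme xanthine oxidoreductase, the membrane protein BTN1A1 (butyrophilin) and the droplet coat protein PLIN2 (adipophilin) are thought to hold the droplet to the membrane, and mouse studies have tied CIDEA, a droplet protein, to the same step. MUC1 and MUC15 are heavily glycosylated mucins of the outer face, and MFGE8 (lactadherin) is a secreted protein that binds phosphatidylserine and integrins. PLIN3 coats small nascent droplets, and RAB18 is a small GTPase found on lipid droplets.

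Following the methods of the study, array neighboring 5, set aside there as a biological outlier, and array healthy 3, set aside as a technical outlier, did not enter the fit, so 4 neighboring arrays were compared with 4 healthy arrays. The fit on all 10 arrays is given beside it, for the members and for the calls of the other genes. The tissue carried the marks of a lactating gland: all 7 milk protein genes listed (among them the caseins and LALBA) averaged 14.30 to 14.38 on the neighboring arrays and 14.35 to 14.38 on the healthy arrays, near the highest value on any array, 14.86. Array medians lay between 6.25 and 6.27.

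In neighboring glands the mucins MUC1 and MUC15, MFGE8 and XDH were lower, by 21.6% to 38.5% of the healthy level, while BTN1A1, PLIN2, CIDEA, PLIN3 and RAB18 did not pass the test. Counting each gene by its brightest probe set, 4 of 9 genes fell and 0 rose by limma at an adjusted p below 0.05, the adjustment running over 14409 probe sets, and the counts were the same on all 10 arrays. With neighboring 5 alone put back 3 genes fell, XDH by its brightest probe set no longer passing, beside 3.1% of all kept probe sets. Among all 7055 genes counted by their brightest probe set 11.5% fell on the 8 arrays and 5.02% on the 10 arrays. By probe set, 6 of 12 fell, beside 12% of all kept probe sets, and again 6 of 12 on the 10 arrays, beside 5.37%. Of all kept probe sets 17.7% rose on the 8 arrays and 7.16% on the 10 arrays, and 0 of the 12 did. Every neighboring array lay below every healthy array for 5 of the 12 on the 8 arrays and for 4 on the 10 arrays, beside 13.3% and 3.48% of all kept probe sets. The median difference of the 9 genes was −0.40 (−0.37 on 10 arrays), against 0.03 over all kept probe sets (0.02 on 10 arrays). The stricter threshold of the study, which asks for more than a 2-fold change at an adjusted p below 0.01, was passed by 0 of the 9 genes and by 2.76% of all kept probe sets (0 and 0.104% on 10 arrays), while 10 of the 12 member probe sets, RAB18 on the higher side among them, had an unadjusted limma p under 0.05, beside 42.5% of all kept probe sets (9 and 33.1% on 10 arrays). In bulk tissue, fewer cells of a type and less RNA per cell cannot be told apart.

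**Figure D1:**
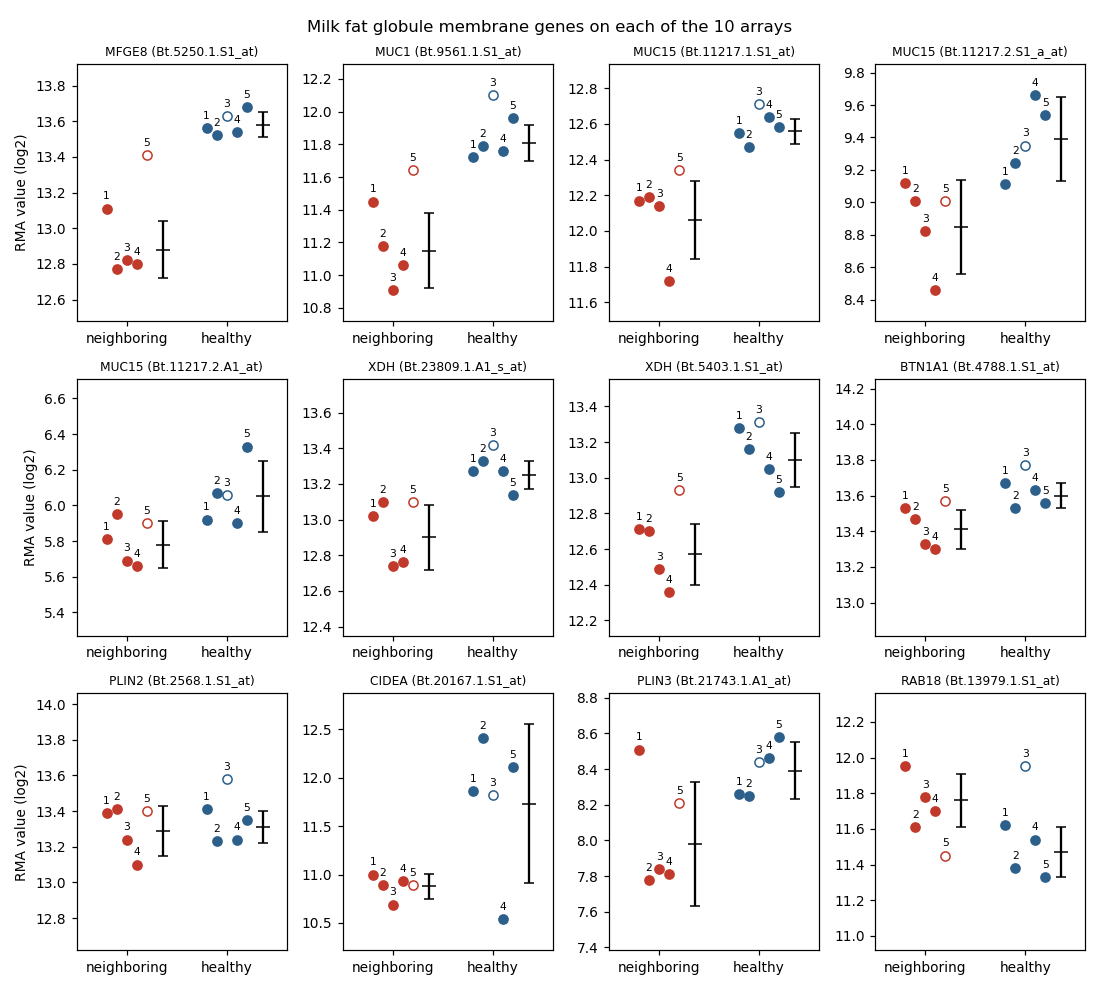
RMA values (log2, y axis) of the 12 probe sets on each array, neighboring on the left and healthy on the right of each panel; numbers are replicates, filled points entered the fit, open points are neighboring 5 and healthy 3, and bars are mean ± SD over the 4 arrays per group. MFGE8 reads 12.77 to 13.41 on the 5 neighboring arrays and 13.52 to 13.68 on the 5 healthy arrays, while the PLIN2 panels of both groups overlap.

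Among proteins of the globule's outer face, MUC1 fell by 0.66 ± 0.12 (SE) on the log2 scale, 36.6% below the healthy level (limma, adjusted p = 0.00404). It read 11.45, 11.18, 10.91, 11.06 and 11.64 on neighboring 1 to 5, against 11.72, 11.79, 12.10, 11.76 and 11.96 on healthy 1 to 5. All 5 neighboring arrays were below all 5 healthy arrays, with neighboring 5 nearest to the healthy ones and a gap of 0.08 between the groups. The means were 11.15 ± 0.23 in neighboring and 11.81 ± 0.11 in healthy glands (SD, n = 4 each). On all 10 arrays the difference was −0.62 ± 0.14 (SE, adjusted p = 0.0272).

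MUC15, the second mucin, is measured by 3 probe sets. The brightest read 12.17, 12.19, 12.14, 11.72 and 12.34 on neighboring 1 to 5, against 12.55, 12.47, 12.71, 12.64 and 12.58 on healthy 1 to 5. The groups did not overlap, and neighboring 4, the array from an untreated gland alone, was the lowest. It fell by 0.50 ± 0.12 (SE, adjusted p = 0.0111), and the difference was −0.48 ± 0.11 on 10 arrays (adjusted p = 0.0291). Without neighboring 4 it was −0.39 (adjusted p = 0.0191). The second in brightness fell by 0.53 ± 0.17 (adjusted p = 0.0354, and 0.0453 on 10 arrays), and its groups met at neighboring 1 (9.12) and healthy 1 (9.11). Its call was lost without neighboring 3 or 4 or healthy 4 or 5, with adjusted p of 0.079 to 0.0944, and with neighboring 5 alone put back (0.0645). The third was dim, with group means of 5.78 ± 0.13 in neighboring and 6.05 ± 0.20 in healthy glands (SD, n = 4 each), and its difference of −0.27 ± 0.12 (SE) did not pass (adjusted p = 0.106, and 0.116 on 10 arrays).

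MFGE8, the phosphatidylserine-binding protein of the globule, showed the widest gap between the groups of the 12 probe sets on the 8 arrays. It read 13.11, 12.77, 12.82, 12.80 and 13.41 on neighboring 1 to 5, against 13.56, 13.52, 13.63, 13.54 and 13.68 on healthy 1 to 5. The 4 neighboring arrays of the fit lay at least 0.41 below the lowest healthy array of the fit, and neighboring 5 lay 0.11 below all 5 healthy arrays. MFGE8 fell by 0.70 ± 0.10 (SE, 95% interval −0.93 to −0.47), 38.5% below the healthy level (limma, adjusted p = 0.00121). On 10 arrays the difference was −0.60 ± 0.12 (adjusted p = 0.0244). Leaving out each array in turn kept the call 8 times out of 8, with differences between −0.78 and −0.67.

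XDH, the enzyme of the droplet-to-membrane complex, is measured by 2 probe sets that fell together. The dimmer one read 12.71, 12.70, 12.49, 12.36 and 12.93 on neighboring 1 to 5, against 13.28, 13.16, 13.31, 13.05 and 12.92 on healthy 1 to 5. The groups of the fit did not overlap, and neighboring 5 and healthy 5 crossed by 0.01. This probe set fell by 0.54 ± 0.12 (SE, adjusted p = 0.00802, and 0.0298 on 10 arrays). The brighter one, whose identifier marks probes that match more than 1 transcript, read 13.02, 13.10, 12.74, 12.76 and 13.10 on neighboring 1 to 5, against 13.27, 13.33, 13.42, 13.27 and 13.14 on healthy 1 to 5. Here all 5 neighboring arrays were below all 5 healthy ones, by a margin of 0.04. It fell by 0.35 ± 0.11 (SE, adjusted p = 0.0357, and 0.0474 on 10 arrays). Its call was lost without neighboring 3 or 4 or healthy 1, 2 or 4, with adjusted p of 0.0738 to 0.1, and with neighboring 5 alone put back (0.0838). The dimmer one kept its call without each array in turn and with neighboring 5 put back (0.0496).

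BTN1A1, the membrane partner of XDH, differed by −0.19 ± 0.09 (SE, 95% interval −0.39 to 0.02, adjusted p = 0.15). It read 13.53, 13.47, 13.33, 13.30 and 13.57 on neighboring 1 to 5, against 13.67, 13.53, 13.77, 13.63 and 13.56 on healthy 1 to 5. The groups overlapped at healthy 2 and healthy 5, and neighboring 3 and 4 were the lowest arrays. On all 10 arrays the difference was the same, −0.19 ± 0.09 (adjusted p = 0.159).

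PLIN2, the droplet coat protein of the complex, had the smallest difference of the members, −0.02 ± 0.10 (SE, 95% interval −0.25 to 0.21, adjusted p = 0.895), and −0.05 ± 0.10 on 10 arrays. It read 13.39, 13.41, 13.24, 13.10 and 13.40 on neighboring 1 to 5, against 13.41, 13.23, 13.58, 13.24 and 13.35 on healthy 1 to 5. The groups overlapped almost throughout, and the sign of the difference changed with the arrays entered. For the measured signal, the interval leaves room for a fall of the size of BTN1A1 but not of that of MFGE8, whose own interval ends at −0.47. Whether the members differed from each other in their response was not tested. The milk protein genes had a median difference of −0.03, with 0 of 7 past limma's test on 8 or on 10 arrays and 0 of 7 at an unadjusted p below 0.05. Their group means, 13.53 to 14.77, lay near the top of the intensity range, where values are compressed. A change in these transcripts may therefore not show. PLIN2 (group means 13.29 and 13.31) and BTN1A1 (13.41 and 13.60) were nearly as bright as the dimmest of them. A change in these 2 members may be understated too, and by how much was not tested.

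CIDEA, the droplet protein tied to lipid secretion in mice, had the largest difference of the members and the least certain one, −0.85 ± 0.32 (SE, 95% interval −1.57 to −0.13, adjusted p = 0.0711). It read 11.0, 10.89, 10.69, 10.93 and 10.89 on neighboring 1 to 5, against 11.86, 12.41, 11.82, 10.54 and 12.11 on healthy 1 to 5. The 5 neighboring arrays were close together and below 4 of the healthy arrays, but healthy 4 was the lowest of all 10. The SD was 0.13 in neighboring and 0.82 in healthy glands (n = 4 each). On 10 arrays the difference was −0.87 ± 0.27 (adjusted p = 0.0575), and without healthy 4, among the 8 arrays, it was −1.25 with an adjusted p of 0.00110. Leaving out each other array of the fit in turn gave −0.89 to −0.63 and no call (limma, adjusted p = 0.101 to 0.166). Neighboring 5 stood 0.84 below the healthy mean for CIDEA, within the range of the other neighboring arrays, whereas it stood only 0.17 below for MFGE8 and MUC1.

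PLIN3, the coat protein of small droplets, differed by −0.40 ± 0.17 (SE, adjusted p = 0.0892, and 0.103 on 10 arrays). It read 8.51, 7.78, 7.84, 7.81 and 8.21 on neighboring 1 to 5, against 8.26, 8.25, 8.44, 8.46 and 8.58 on healthy 1 to 5. Neighboring 2, 3, 4 and 5 were below every healthy array, while neighboring 1 was the second highest of the 10. Without neighboring 1 the difference among the 8 arrays was −0.58 with an adjusted p of 0.00473. Leaving out each other array of the fit in turn gave −0.45 to −0.34 and no call (limma, adjusted p = 0.102 to 0.197).

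RAB18, the GTPase of the droplet surface, was the 1 member with a positive difference, 0.29 ± 0.11 (SE, adjusted p = 0.0680). It read 11.95, 11.61, 11.78, 11.70 and 11.45 on neighboring 1 to 5, against 11.62, 11.38, 11.95, 11.54 and 11.33 on healthy 1 to 5. Healthy 3 shared the highest value with neighboring 1, and with both arrays put back the difference was 0.13 ± 0.13 (adjusted p = 0.498).

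**Figure D2:**
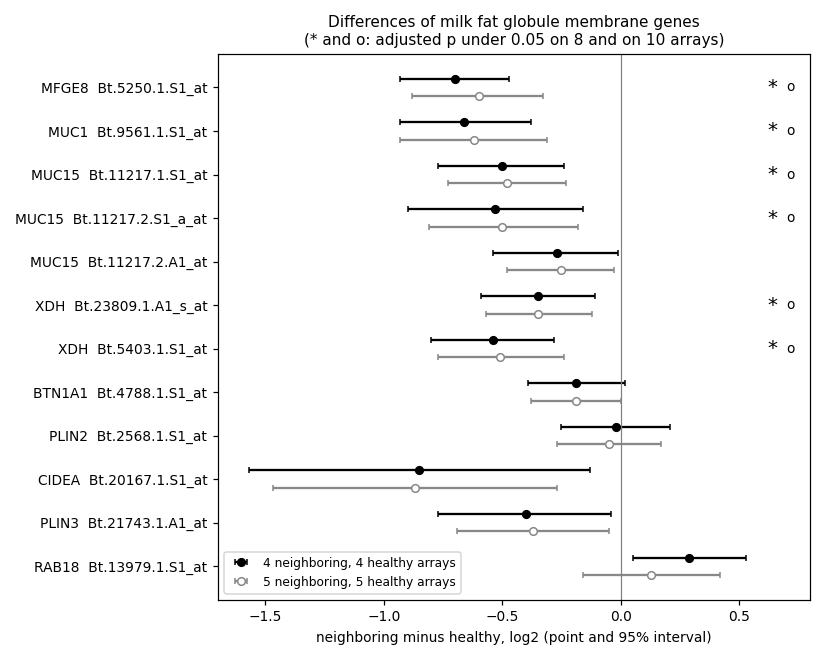
Difference between neighboring and healthy glands (x axis, log2) for each of the 12 probe sets (y axis), with limma's 95% interval; black points are the fit on 4 arrays per group, open grey points that on 5 per group. The intervals of MFGE8, MUC1, XDH, CIDEA, PLIN3 and the 3 MUC15 sets lie below 0 in both fits before adjustment for the number of probe sets, that of RAB18 lies above 0 on 8 arrays only, and those of BTN1A1 and PLIN2 reach 0 in both.

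The arrays of the neighboring group did not shift alike. Set against the healthy mean of the fit, neighboring 3 and neighboring 4 were lowest for XDH (−0.51 and −0.50) and BTN1A1 (−0.27 and −0.29), and neighboring 4 for MUC15 (−0.84). Neighboring 1 was the least shifted array of the fit for MFGE8 (−0.47), MUC1 (−0.36) and PLIN3 (0.12). Neighboring 5 lay between −0.22 and −0.16 for MFGE8, MUC1, MUC15 and XDH, on the same side as the other neighboring arrays and closer to the healthy ones, except that neighboring 2 was as close for XDH (−0.15).

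**Figure D3:**
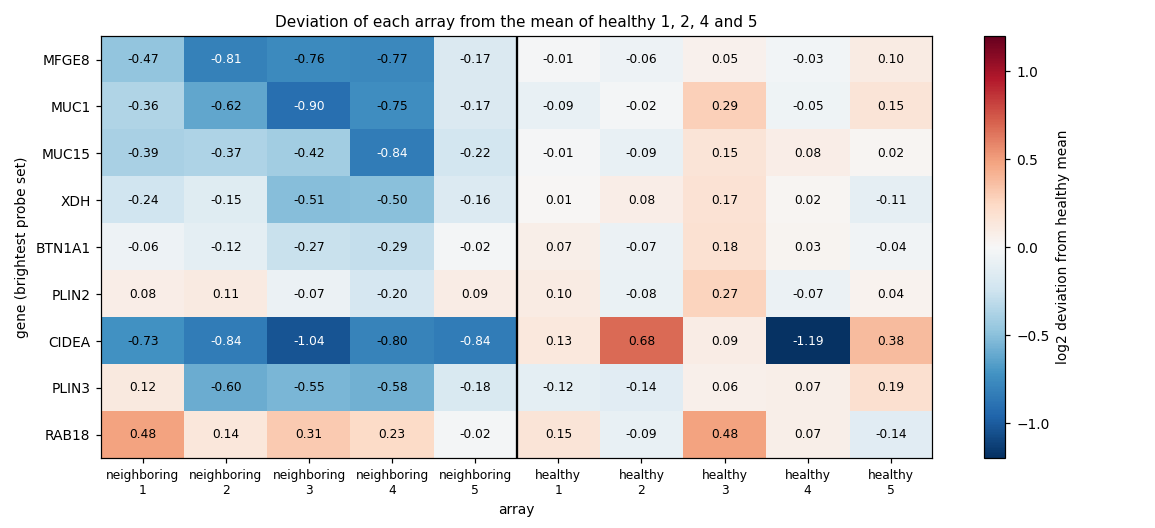
Deviation of each array (columns, neighboring on the left) from the mean of healthy 1, 2, 4 and 5, in log2 units, for the brightest probe set of each gene (rows). MFGE8, MUC1, MUC15, XDH, BTN1A1 and CIDEA are below 0 on all 5 neighboring arrays, BTN1A1 by as little as 0.02, and CIDEA varies most among the healthy arrays, from −1.19 to 0.68.

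With the group means removed, the deviations of the 10 arrays were compared between genes by Pearson's r, as a description with no test, since the arrays were normalized together. Neighboring 5 and healthy 3, left out of the fit, entered these r, and r without them was not computed. Neighboring 5 was the highest neighboring array for MFGE8 (13.41) and MUC1 (11.64). Healthy 3 was the highest healthy array for BTN1A1 (13.77) and PLIN2 (13.58). BTN1A1 and PLIN2 went together most closely (r = 0.87), followed by MFGE8 and MUC1 (0.86) and by XDH and BTN1A1 (0.81), while CIDEA stayed between −0.21 and 0.21 with every other member. The 2 probe sets of XDH had r = 0.87. Searched over all kept probe sets with a symbol, the genes most like MFGE8 were RECQL5, a DNA helicase (0.98), SLC39A7, a zinc transporter (0.97), and OCIAD1 (0.97). Those most like MUC1 were TGOLN2, a trans-Golgi membrane protein (0.96), the phosphate transporter SLC34A2 (0.95) and GRN, the progranulin gene (0.95). MUC15 was nearest to FCGR2B, an inhibitory Fc receptor (0.96), HOMER2 (0.95) and NUP205, a nuclear pore protein (0.93). XDH was nearest to VIPR1, a receptor of vasoactive intestinal peptide (0.97), the lamin gene LMNA (0.95) and PPT1, a lysosomal thioesterase (0.92). These r are the highest of all genes searched and so are high by selection. Of these genes SLC39A7, OCIAD1, TGOLN2, SLC34A2 and FCGR2B were lower by limma on 8 arrays, and the others did not pass.

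Other proteins found in the fat globule membrane went both ways, with 4 of 16 higher, 4 lower and a median of −0.12 (1 higher and 3 lower on 10 arrays). The transporter ABCG2, which carries riboflavin and other compounds into milk, fell by 1.32 ± 0.13 (SE, adjusted p = 0.000173, and 0.0285 on 10 arrays), and SLC34A2 fell by 1.23 ± 0.23 (adjusted p = 0.0039, and 0.0428 on 10 arrays). CLU, the secreted chaperone clusterin, rose 4.56-fold (adjusted p = 0.000662, and 0.0246 on 10 arrays). For ABCG2 and SLC34A2 neighboring 5 read 13.02 and 7.89, within the healthy ranges of 12.81 to 13.17 and 7.39 to 8.12.

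Of 13 kept genes of lipid droplet formation and turnover, 3 rose, 1 fell and 9 did not pass (0 and 1 on 10 arrays), with a median of 0.01. G0S2, an inhibitor of the lipase PNPLA2, fell by 2.14 ± 0.27 (SE, adjusted p = 0.0355 on 10 arrays), and LPIN1, a phosphatidate phosphatase, rose 1.77-fold but did not pass on 10 arrays (adjusted p = 0.0853). Among 7 partners of RAB18, only RAB3GAP1, a subunit of its exchange factor, rose (by 0.36 ± 0.11, adjusted p = 0.0301), and 0 of 7 passed on 10 arrays (adjusted p = 0.298 for RAB3GAP1). Of 8 membrane fusion proteins, VAMP7 (1.74-fold) and STXBP2 (1.25-fold) rose and 0 fell, and VAMP7 alone passed on 10 arrays. Of 8 enzymes of purine breakdown and of the molybdenum cofactor that XDH needs, MOCOS, which adds sulfur to that cofactor for XDH, rose 2.08-fold (adjusted p = 0.00673), but not past the test on 10 arrays (adjusted p = 0.124). Of 7 receptors of MFGE8 and of dead cell uptake, the integrin subunit ITGAV rose 3.19-fold (adjusted p = 0.000760, and 0.0435 on 10 arrays). The 1 other butyrophilin-like gene measured, BTNL9, fell by 1.10 ± 0.22 (adjusted p = 0.00525, and 0.0402 on 10 arrays). Of 13 regulators of lactation and milk fat, 2 rose and 3 fell (0 and 2 on 10 arrays). The lipogenic receptor PPARG fell by 0.95 and the glucocorticoid receptor NR3C1 by 0.86, both also past the test on 10 arrays (adjusted p = 0.03 and 0.043), and INSIG1, a regulator of sterol sensing, rose 1.68-fold but did not pass there (adjusted p = 0.0731). Although they passed on 10 arrays, G0S2, VAMP7, ITGAV, BTNL9, PPARG and NR3C1 were not shifted on neighboring 5. It read 9.31, 7.53, 7.57, 9.25, 7.11 and 7.87 for them, each within the range of the healthy arrays of the fit.

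**Figure D4:**
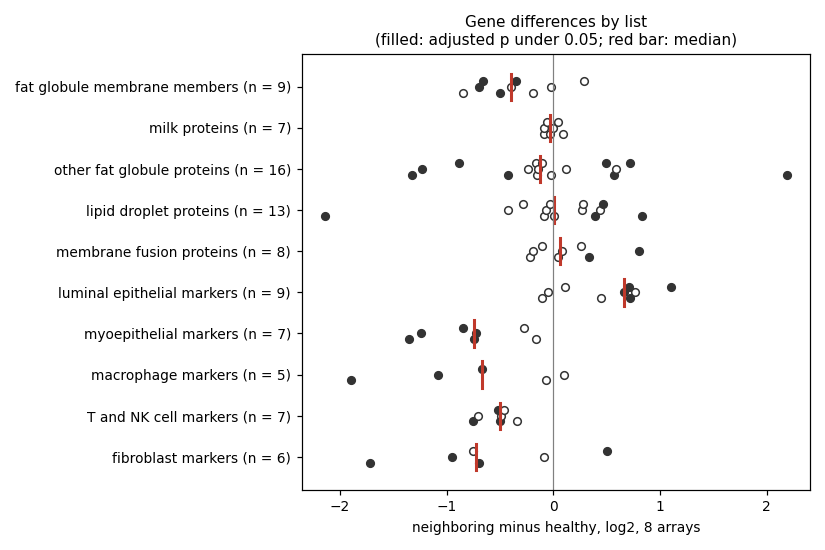
Difference between neighboring and healthy glands on the 8 arrays (x axis, log2) for each gene of the members and of 9 other lists (y axis, with the number of genes above the intensity filter); filled points passed an adjusted p of 0.05 and red bars are medians. The members have a median of −0.40, the milk proteins −0.03, the luminal epithelial markers 0.66 and the myoepithelial markers −0.74.

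Markers of several cell types moved with the groups. Luminal epithelial markers were higher in 4 of 9 and lower in 0, led by the keratin KRT19 (2.15-fold), the adhesion protein EPCAM (1.64-fold) and the claudin CLDN3 (1.64-fold), and their mean level was 10.09 to 10.37 on the neighboring and 9.58 to 9.85 on the healthy arrays of the fit. On 10 arrays 2 of 9 were higher, EPCAM among them (adjusted p = 0.0223), while KRT19 (0.0771) and CLDN3 (0.0643) did not pass. On the 8 arrays KRT18, KRT7, ELF5, CDH1 and CLDN4 did not pass, with differences of 0.77, 0.45, −0.11, 0.11 and −0.05. Myoepithelial markers were lower in 5 of 7 (mean level 8.44 to 8.81 against 9.18 to 9.71), among them CNN1, OXTR and MYH11, and macrophage markers in 3 of 5 (7.68 to 8.19 against 8.48 to 8.68), namely MSR1, CD14 and AIF1. The myoepithelial KRT14 (−0.27) and KRT5 (−0.16) and the macrophage markers CD68 (0.10) and CSF1R (−0.07) did not pass. On 10 arrays 4 of 7 myoepithelial and 2 of 5 macrophage markers were lower, AIF1 no longer passing (adjusted p = 0.379). T and NK cell markers were lower in 3 of 7 (6.01 to 6.66 against 6.63 to 6.97; CD3E, CD2 and CD3D), and fibroblast markers in 3 of 6 with 1 higher (8.81 to 9.58 against 9.72 to 10.14), LUM, COL3A1 and COL1A1 being the lower ones. On 10 arrays 0 of 7 T and NK cell markers passed (adjusted p = 0.109 for CD3E, 0.102 for CD2 and 0.159 for CD3D, with 3 of 7 at an unadjusted limma p below 0.05), and 4 fibroblast markers were lower and 1 higher. The fibroblast marker that rose was PDGFRA (by 0.50 on 8 arrays, limma, adjusted p = 0.0167). On 8 arrays COL1A2 (−0.75) and DCN (−0.09) did not pass. Of 6 neutrophil markers on the array 3 were kept, and of these S100A8 and S100A12 rose, on 10 arrays too. The third, S100A9, had a difference of 0.17 and did not pass (limma, adjusted p = 0.221, and 0.108 on 10 arrays). Of 6 adipocyte markers on the array 2 were kept: FABP4 fell by 1.10 but did not pass on 10 arrays (−0.66, adjusted p = 0.128), and LIPE had a difference of 0.28 (adjusted p = 0.101). On 8 and on 10 arrays 0 of 2 B and plasma cell and 0 of 4 endothelial markers passed limma's test (0 and 2 at an unadjusted p below 0.05 on 8 arrays, 0 and 1 on 10). The part of these shifts in the results on the fat globule genes was not tested. Scaling each array to the luminal epithelial markers cannot test it, since every probe set of an array is moved by the same amount. Their mean level was 0.48 higher in the neighboring group, and all differences moved down by that much. MFGE8 then stood at −1.18, PLIN2 at −0.50, RAB18 at −0.19 and the median of all kept probe sets at −0.46.

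The hybridization controls, bacterial transcripts added to each sample, read 10.20 to 10.43 on the neighboring and 10.42 to 10.84 on the healthy arrays of the fit. With their mean as a covariate 0 of the 12 probe sets passed, with differences of −0.72 for MFGE8 (adjusted p = 0.0813), −0.62 for MUC1 (0.171), −0.69 for the brightest MUC15 set (0.112) and −0.53 and −0.37 for XDH (0.211 and 0.339), while CIDEA turned to 0.15 (0.886). In that fit 0.687% of all kept probe sets were lower. The controls nearly separated the groups, so their part and that of the group cannot be told apart. The SE of MFGE8 was 0.19 with the covariate and 0.10 without it. Healthy 4 had the lowest control mean of the healthy arrays of the fit, 10.42, and neighboring 5, outside the fit, read 10.65.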

How the data were processed

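Tissue was homogenized in TRIzol, and RNA was amplified, labelled with biotin (MessageAmp II) and measured on the bovine Affymetrix GeneChip. Each probe set has a log2 value, deposited by the authors after RMA (background correction, quantile normalization over arrays, summary over probes). The version is not given in the sources used here. Values near the top of the range are compressed, and a shift common to most transcripts is removed. Groups were taken from titles and descriptions, because 1 label field of the healthy arrays repeats the text of the neighboring ones.

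Of 24016 probe sets (112 array controls left out), 13292 carried 1 symbol. The 40% with the lowest mean over 10 arrays (under 5.71) were removed in place of the study's present calls. The fit was limma 3.58.1 in R 4.3.3 (lmFit, eBayes, two-sided, Benjamini-Hochberg over 14409 probe sets), with 4 arrays per group. It was tested on simulated data. SD is between arrays and SE is limma's. The number of arrays limits the precision, and the cows are separate animals. Other genes were counted by their brightest probe set in lists for other fat globule proteins, droplet proteins, RAB18 partners, membrane fusion, the XDH cofactor and purines, MFGE8 receptors, mucins (0 of 7 with a probe set here), butyrophilins, lactation regulators and cell types, and up to 3 genes per list with the largest changes past the test were named. Members and lists were chosen with earlier results of these data known. Alternatives covered the arrays entered, filter, scaling, variance model, array weights, the hybridization controls, the replicate number as a block and leaving out each array. One on pooled arrays was added after seeing the data. Sequences were not used here.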

Additional observations from a re-analysis of the deposited data

Results flagged for a closer look

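An array was set apart when its distance to the nearest other array of its group, divided by the range of the group, was above Dixon's 95% critical value. Groups of 5 arrays and of the 4 arrays in the fit were tested for the 12 probe sets, 48 combinations in all, and 3 had such an array, where chance gives about 1 in 20. All 3 were neighboring arrays in groups of 4. MFGE8 read 13.11 on neighboring 1, with the next array at 12.82. The brightest MUC15 probe set read 11.72 on neighboring 4, with the next at 12.14. PLIN3 read 8.51 on neighboring 1, with the next at 7.84. With neighboring 5 included, 0 of the 3 passed the critical value.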

How the results depend on the processing

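The calls on MFGE8, MUC1, the brightest MUC15 set and the dimmer XDH set kept their direction under all alternatives run and lost their call with the hybridization control covariate. MUC1, MUC15 and XDH also lost it with the replicate number as a block on 8 or on 10 arrays, MFGE8 did not. PLIN2 had a difference of 0.00 with neighboring 5 put back or after scaling to milk proteins, 0.04 with the covariate, 0.01 with the replicate block on 8 arrays, 0.06 on arrays of pooled glands (chosen after seeing the data), and −0.06 to 0.04 with each array left out. CIDEA turned to 0.15 with the covariate. Scaling to luminal epithelial markers turned RAB18 to −0.19, ACSL3 to −0.02, RAB3GAP1 to −0.12 and STXBP2 to −0.16. It raised the member probe sets lower from 6 to 11 and the member genes past the test from 4 to 8, beside 58.0% of all kept probe sets lower. By construction it shifts all values, and 95.3% of its 8770 calls were lower. With the covariate both member counts were 0, of 251 probe sets called in all. Same-numbered arrays came from different cows and their deviations had correlations of −0.186 to 0.165, so the numbers do not pair them. With the replicate block 2 member probe sets and 2 genes passed on 10 arrays, beside 3.1% of all kept probe sets lower (1161 called). On 8 arrays 2 member probe sets and 1 gene passed, beside 4.38% of all kept probe sets lower (1481 called). At the study's threshold 0 member genes and 398 probe sets passed. With neighboring 5 put back 3 member genes passed, the brighter XDH set and the second MUC15 set losing their call. Of all probe sets 4283 were called, 1806 on 10 arrays, 1190 with neighboring 5 put back, 2483 on arrays of pooled glands and 2996 to 4250 with each array left out. The cause of these changes was not tested. With 4 arrays per group, values near the top of the intensity range and a shift common to most transcripts limit what can be seen.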
